A study of Drosophila melanogaster with 3 samples.

Results

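Of the 3206 reproducible Bdp1 binding sites in the Drosophila genome, 487 (15.2%) had their summit inside an intron, away from any annotated transcription start but no more than 2000 bp from the nearest protein-coding one. A site was placed among these intron peaks when its interval missed every window of 100 bp on either side of an annotated 5' end, transposable elements aside, and when its summit lay in a gene, in no exon, and within 2000 bp of a protein-coding transcript's 5' end. The genes, exons and 5' ends were those of Ensembl release 115 on the BDGP6 assembly. The study measured where Bdp1 sits on chromatin by ChIP-seq, in which DNA crosslinked to a protein is recovered with an antibody and sequenced. The flies were a transgenic line in which the gene CG9305, which encodes Bdp1, was fused to GFP at its C-terminal end, and the DNA was recovered with an antibody against GFP after sonication to 200 to 800 bp. There was 1 group, with 3 biological replicates of whole embryos of mixed sex, aged 0 to 24 h, and all 3 carried the fusion. No group with another genotype, age or treatment entered the comparisons, so each comparison is between places in the genome within the same replicate. Because whole embryos were used, binding in few cells and weak binding in many cells cannot be told apart.

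Bdp1 is a subunit of TFIIIB, the initiation factor that recruits RNA polymerase III to the genes of tRNAs, 5S rRNA and other small RNAs. At tRNA genes the factor TFIIIC first binds the A box and the B box inside the gene and then places TFIIIB just upstream of the start. Introns of fly genes, above all the first ones, often hold enhancers and alternative promoters of RNA polymerase II, and they can also hold genes for snoRNAs and whole nested genes. GAGA factor, the product of Trl, is a DNA-binding protein that keeps many fly promoters and regulatory elements free of nucleosomes and that binds runs of alternating G and A.

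The strongest of these intron peaks lay in CG42588, and 2 stretches of that gene's first intron are printed first because they carried the highest signals of the 487. All sequences are from the dm6 genome, plus strand, 5' to 3', and letters are in lower case apart from the motif matches. The first stretch, chr3L:12815818-12816018, runs from 60 bp before the summit to 140 bp after it. The second, chr3L:12814939-12815059, is centred on the summit of the neighbouring peak. Capitals mark a match to the B box core with its G after the C left open, GTTCNANNC.
CG42588, stronger peak: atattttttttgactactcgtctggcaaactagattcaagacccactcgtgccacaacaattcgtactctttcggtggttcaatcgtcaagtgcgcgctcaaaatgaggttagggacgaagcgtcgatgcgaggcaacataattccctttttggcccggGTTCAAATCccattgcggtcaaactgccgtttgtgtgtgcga
CG42588, weaker peak: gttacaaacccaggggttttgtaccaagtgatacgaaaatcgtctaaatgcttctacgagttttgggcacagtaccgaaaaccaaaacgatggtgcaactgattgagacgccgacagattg

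A second set shows short words that a minority of the intron peaks held, within 149 bp on either side of the summit. The peak in Lk6 (chr3R:11760907-11761205) and the peak in mub (chr3L:21880353-21880651) were among the 3 strongest with a GAGA motif, and capitals mark GAGAGAG and ACAGTG on either strand.
Lk6: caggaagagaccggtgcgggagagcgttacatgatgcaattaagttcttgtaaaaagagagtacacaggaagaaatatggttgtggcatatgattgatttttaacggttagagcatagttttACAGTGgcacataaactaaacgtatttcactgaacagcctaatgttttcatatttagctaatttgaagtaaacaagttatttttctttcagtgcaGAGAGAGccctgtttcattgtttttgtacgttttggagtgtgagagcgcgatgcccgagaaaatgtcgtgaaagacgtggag
mub: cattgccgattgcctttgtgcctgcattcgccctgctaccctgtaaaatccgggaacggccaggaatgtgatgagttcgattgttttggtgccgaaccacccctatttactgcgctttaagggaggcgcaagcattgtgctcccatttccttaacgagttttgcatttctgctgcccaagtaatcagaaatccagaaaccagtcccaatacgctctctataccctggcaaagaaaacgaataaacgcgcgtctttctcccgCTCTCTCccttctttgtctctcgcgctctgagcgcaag

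The signal of a site in a replicate was taken from the authors' list for that replicate and divided by the median of the 3206 optimal peaks there, so that 1 stands for a typical reproducible site. On this scale the 487 intron peaks were of ordinary height. Their median was 1.05 in replicate 1, 1.03 in replicate 2 and 0.993 in replicate 3 (mean 1.03 ± 0.0311, SD, n = 3). Over the 460 sites with a value in every replicate, the mean signal of a site ranged from 0.497 to 17.1, with quartiles at 0.754 and 1.53. Only 69 of those sites reached 2, 17 reached 4 and 4 reached 8, while 224 lay below 1. The distribution therefore had a long upper tail made of few sites. In the pooled list no intron peak ranked within the first 20, 1 ranked within the first 100 and 61 within the first 500, and their median rank was 1526.

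The 2 strongest sites were the 2 in CG42588, a gene on chromosome 3L. The stronger peak (chr3L:12815679-12816085, summit 1624 bp downstream of the 5' end) had a signal of 16.3, 18.6 and 16.3 in replicates 1 to 3, a mean of 17.1 ± 1.32. The weaker (chr3L:12814750-12815201, summit at 745 bp) had 9.01, 9.77 and 9.71, a mean of 9.50 ± 0.423. In each replicate the stronger stood above the weaker with no overlap. Both summits lay in the same intron, 879 bp apart, between the first and second exon of the gene. Another peak (chr3L:12813847-12814242), at the 5' ends of CG42588 and of the divergent gene Sf3a2, a subunit of the splicing factor SF3a, had 1.51, 0.251 and 1.22, so the promoter itself stood far below both intron sites in all 3 replicates.

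The single relaxed B box match in the stronger CG42588 peak, printed above, was centred 103 bp from the summit. At the 167 peaks at 5' ends of Pol III genes whose 301-bp window held exactly 1 such match, the distance was 85 bp in the median, with quartiles at 78 and 98 bp, so the CG42588 distance lay just past the upper quartile. The weaker CG42588 peak had no match within its window. Over all sites, a match of this form was at 9.65% of the 487 and at 8.59% of intron windows without a peak, described below. The rule for intron peaks set aside every peak at an annotated 5' end, those of Pol III and snoRNA genes included. The shortest distances to such genes were thus excluded beforehand, and the counts that follow are partly set by the rule. No annotated Pol III gene lay within 500 bp of any of the 487 summits. A snoRNA gene lay that near to 1 of them, the peak in CG3902 (chr3L:18896614-18896760, signal 1.73 ± 0.263, n = 3), whose summit was 214 bp upstream of the 5' end of snoRNA:Psi28S-2566 (chr3L:18896189-18896456), a guide for pseudouridylation of rRNA.

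**Figure D1:**
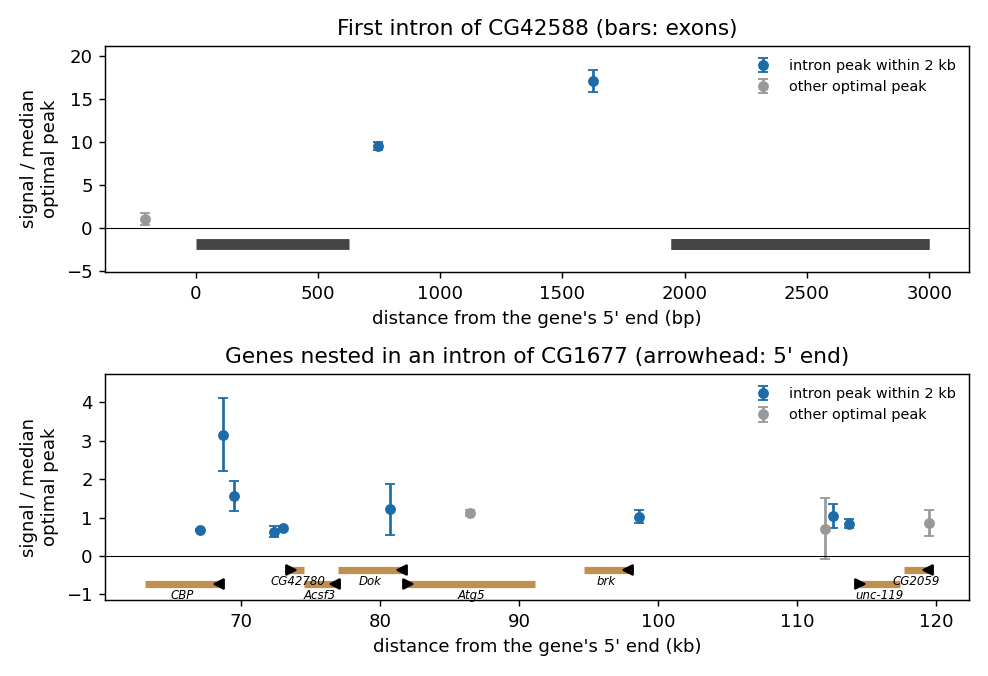
Peak signal along the first intron of CG42588 (top) and along the large intron of CG1677 that holds other genes (bottom), against distance from the gene's 5' end in bp and in kb. Points and bars are the mean and SD of the 3 replicates, on a linear axis relative to the median optimal peak, and peaks lacking a value in 1 replicate are not drawn; dark bars are exons, brown bars nested genes. The 2 CG42588 intron peaks stand at 9.50 and 17.1, whereas in CG1677 the highest of 9 is 3.16.

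The next sites held genes of several kinds. A peak in ush (chr2L:480914-481268), which encodes a zinc-finger cofactor of GATA factors, had 9.33, 11.4 and 7.75 (mean 9.49 ± 1.82), and its nearest 5' end, 1410 bp away, was that of cbt, a gene for a zinc-finger transcription factor. A peak in CG11050 (chr2L:6612538-6612891), 1035 bp downstream of a 5' end, had 8.60, 8.72 and 10.1 (mean 9.14 ± 0.834). These 2 sites and the weaker CG42588 peak overlapped in signal and could not be ranked beyond the spread of the replicates. The peak in Lk6 (chr3R:11760892-11761198), the gene of a kinase that phosphorylates the cap-binding factor eIF4E, had 6.51, 9.00 and 7.61 (mean 7.71 ± 1.24) and lay 977 bp upstream of an internal 5' end of its own gene.

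The peak in ph-p (chrX:2137189-2137520), which encodes the Polycomb complex subunit Polyhomeotic, had 5.78, 8.30 and 7.15 (mean 7.08 ± 1.26), 473 bp upstream of an internal 5' end. In Elp6 (chr3R:13363386-13363719), a subunit of the Elongator complex that modifies tRNA wobble bases, the signal was 5.66, 6.09 and 6.90 (mean 6.22 ± 0.628). In larp (chr3R:28326449-28326735), an RNA-binding protein related to La, it was 5.29, 6.80 and 4.71 (mean 5.60 ± 1.08). The replicate values of Lk6, ph-p, Elp6 and larp overlapped along this order.

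The remaining 7 of the 15 strongest had means between 4.37 and 5.48. They lay in CG32772 (5.25 ± 0.630), in CG9663 (5.35 ± 1.78), in cno (5.48 ± 2.37), whose product Canoe links adherens junctions to actin, in the overlapping genes HmgD and HmgZ (4.74 ± 0.311), which encode HMG-box chromatin proteins, in Trl (4.95 ± 1.30), in CG31635 (4.37 ± 0.876) and in Adf1 (4.53 ± 1.45), a transcription factor gene. The peak in cno was the least even, at 4.71, 8.13 and 3.60. All 15 were among the strongest peaks of every replicate. Their intervals were 268 to 452 bp wide with a median of 332 bp, while 396 of the 487 had exactly 396 bp.

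**Figure D2:**
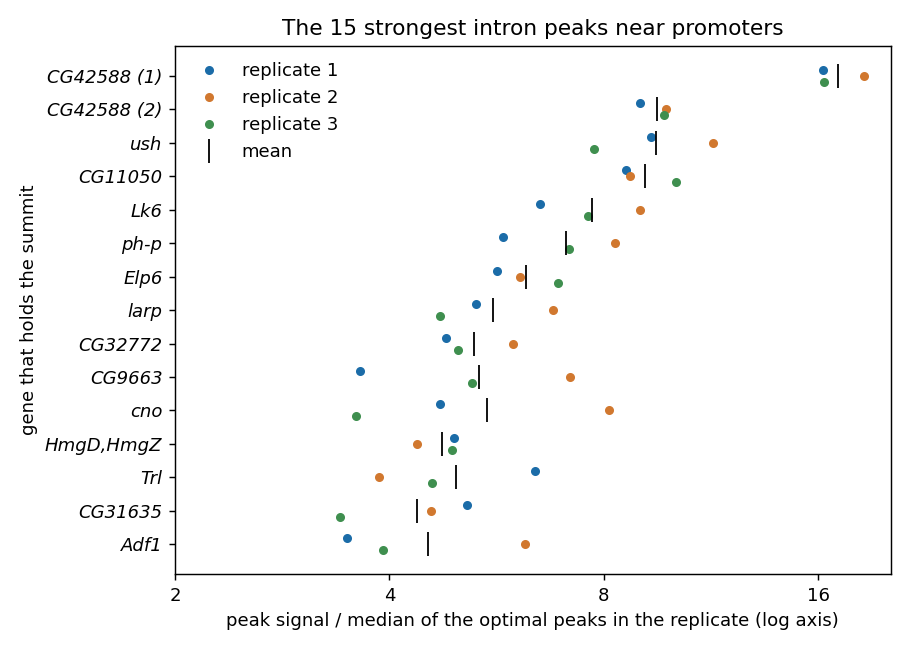
Signal of the 15 strongest intron peaks in each replicate (points) with the mean (vertical mark), relative to the median optimal peak of the replicate on a log axis, ordered by mean rank. The stronger CG42588 peak lies above all others in every replicate, at 16.3 to 18.6, and the sites below the weaker CG42588 peak overlap with their neighbours.

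Replicates were compared by asking whether a site overlapped one of the 3206 strongest peaks of each replicate's own list. Of the 487 intron peaks, 293 (60.2%) did so in all 3, 131 in 2, 60 in 1 and 3 in none, against 56.5% in all 3 among all optimal peaks. The exact 95% binomial interval was 55.7% to 64.5%, which covers counting error only. The same share was 48.3% for the 493 intron peaks over 2 kb from a protein-coding 5' end, 53.4% for the 1435 peaks at protein-coding 5' ends and 51.3% for the 380 intergenic peaks. The optimal list was itself selected from these replicates, so the shares describe evenness and are no independent check. Within the intron peaks, the coefficient of variation of a site over the replicates was 25.1% in the median (quartiles 16.3% and 36.7%), and the summits called in the 3 replicates spread over 55 bp in the median and at most 282 bp. Across the sites, Spearman's rho between replicates was between 0.601 and 0.669, over sites that share their libraries.

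Set against other places in the genome, the height of the intron peaks near promoters was not distinguishable from that of promoter peaks. The median signal at protein-coding 5' ends was 0.978, 0.914 and 1.05 in replicates 1 to 3, and the log2 difference between the medians, intron peaks minus promoter peaks, was 0.11, 0.18 and -0.09 (mean 0.07 ± 0.14). An exact two-sided sign-flip permutation test over the replicates gave p = 0.5. Against the intron peaks over 2 kb away, whose medians were 0.879, 0.975 and 0.796, the log2 difference was 0.26, 0.09 and 0.32 (mean 0.22 ± 0.12, exact sign-flip p = 0.25, higher in 3 of 3 replicates). Against intergenic peaks it was 0.17 ± 0.09 with the same sign in all 3 (exact sign-flip p = 0.25). With 3 replicates this test cannot go below 0.25, so none of these differences could pass a threshold of 0.05. Any difference with the same sign in all 3 replicates gives 0.25, so the p-values do not measure the spread between them. At 5' ends of Pol III genes, where Bdp1 has its known role, the medians were 8.14, 7.92 and 6.51, above the median intron peak in every replicate.

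**Figure D3:**
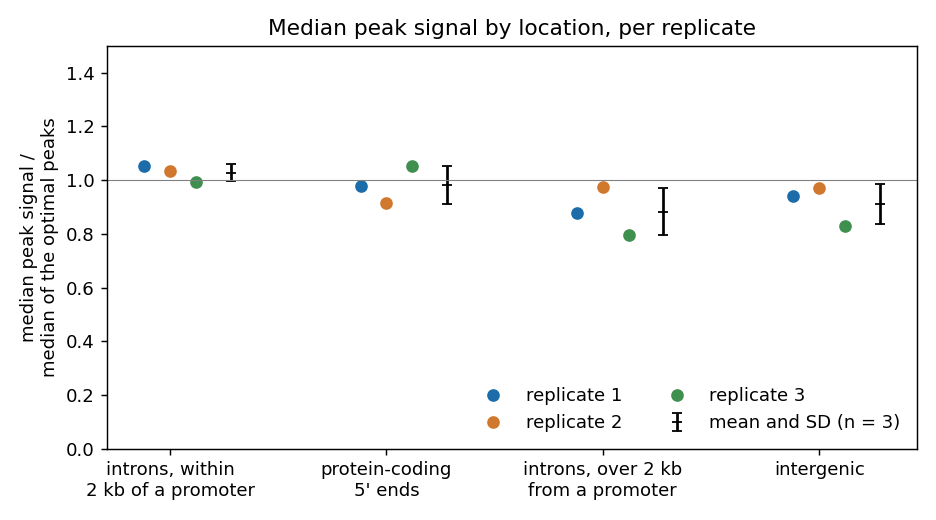
Median peak signal in each replicate (coloured points) and mean with SD over the 3 replicates (black) for 4 groups of optimal peaks, on a linear axis relative to the median of all optimal peaks. The intron peaks near promoters lie at 0.993 to 1.05, above the intron peaks over 2 kb away in each replicate, and overlap the promoter peaks.

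The rule bounds the distance at 2000 bp, but within that bound the sites were not spread evenly. The summit was 812 bp from the nearest protein-coding 5' end in the median, with a range of 146 to 1995 bp. For comparison, introns were tiled with 38103 windows of 301 bp that met the same rule and held no optimal peak. Such windows begin beyond 298 bp, and 470 of the 487 sites lay that far out. Of these, 276 (58.7%) were within 1000 bp, against 46.5% of the windows. Per 1000 windows there were 18.6 sites between 298 and 500 bp, 16.1 between 500 and 750 bp, 12.5 up to 1000 bp and 11.3 up to 1250 bp, and then 8.81, 8.69 and 8.98 in the 3 bins out to 2000 bp. The density thus fell out to about 1250 bp and was level beyond it. The median of the sites' mean signal was 1.06 in the nearest of these bins, 1.12 in the next and 0.884 in the farthest.

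**Figure D4:**
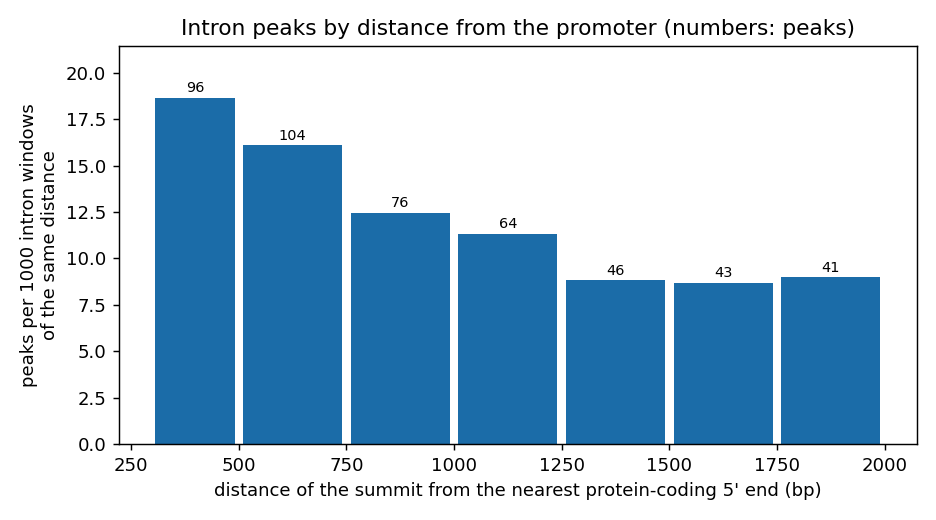
Intron peaks per 1000 peak-free intron windows at the same distance from the nearest protein-coding 5' end, in bins of distance (bp); the number above each bar is the count of peaks. The height is 18.6 in the nearest bin and between 8.69 and 8.98 in the 3 bins from 1250 bp on.

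On the inside of the limit the last sites were in CG43867 (chrX:901069-901464, 1995 bp, signal 1.08 ± 0.150) and in fru (chr3R:18436580-18436975, 1993 bp, 0.620 ± 0.0884), a gene of sex-specific transcription factors. Just outside it were a peak in lncRNA:CR44320 near CG12290 (chr3R:26228162-26228311, 2012 bp, 1.94 ± 0.502) and 1 in hiw near be (chrX:15022223-15022618, 2015 bp, 1.36 ± 0.365).

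With respect to gene structure, 264 sites (54.2%) lay downstream of a 5' end of the gene that held them. Another 176 (36.1%) lay upstream of an internal 5' end of that gene, that is, up to 2000 bp before one of its alternative starts. The other 47 (9.65%) were nearest to the 5' end of another gene. Among the windows these shares were 61.0%, 19.5% and 19.4%, so sites before an internal start made up a larger share of the peaks than of the intron sequence available. They were also somewhat higher. Their median signal was 1.16, 1.09 and 1.07 in replicates 1 to 3, against 1.01, 1.02 and 0.974 for the sites downstream of a start. The medians did not overlap, while the single sites of the groups did. The log2 difference was 0.15 ± 0.05 (exact sign-flip p = 0.25, higher in 3 of 3 replicates). They also lay nearer to the start, at 601 bp in the median against 947 bp, and the part of that distance in the difference was not tested.

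First introns held most of the sites. For 397 (81.5%) the summit was in the first intron of at least 1 transcript, against 64.7% of the intron peaks farther out. For 269 it was in first introns only. The limit on distance itself favours first introns, and no such share is given here for the windows. Together the 487 sites lay in 423 protein-coding genes, which is 3.57% of the 11837 protein-coding genes with an intron, and 2 sites had no protein-coding host. The host genes were long, with a median length of 13992 bp against 2572 bp for all genes with an intron. Counted per site the median length was 16126 bp, against 17699 bp counted per window, so long genes were no more frequent among the sites than in the available intron sequence. The median site lay in a gene with 3 distinct 5' ends and the median window in a gene with 2.

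Most host genes, 350, held a single site, 58 held 2 and 15 held 3 or more. CG1677 held 9, in the large intron over 46721 bp that also contains other genes. Their nearest 5' ends were those of unc-119, brk, Dok, CG42780 and CBP, and brk encodes Brinker, a repressor of targets of the BMP ligand Dpp. The strongest of the 9, 281 bp upstream of CBP (chrX:7336940-7337185), had 2.72, 4.25 and 2.50 (mean 3.16 ± 0.955), and the weakest had a mean of 0.633. NFAT, the gene of a transcription factor of that family, held 5, from 0.587 ± 0.412 to 3.58 ± 1.12. HmgZ held 4, and the next 7 genes by the naming rule, CG9837, CHES-1-like, Fhos, HmgD, Kank, Rtnl1 and Svil, held 3 each. HmgD and HmgZ overlap, and the 3 sites of HmgD are among the 4 of HmgZ. Fhos encodes a formin, CHES-1-like a forkhead factor and Rtnl1 a reticulon of the endoplasmic reticulum.

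A minority of the sites had another peak within 1000 bp. The share was larger than over all optimal peaks and smaller than at peaks at Pol III 5' ends (50.4%). A further optimal summit lay within 1000 bp of 108 of the 487 (22.2%), against 15.9% of all optimal peaks, 9.33% of the intron peaks over 2 kb away and 172 of the 1435 promoter peaks. The nearest other peak was 3520 bp away in the median, against 6027 bp and 6436 bp in those 2 groups. The count includes neighbouring summits called separately. Of the gaps between intron sites, 13 were under 300 bp and the smallest was 199 bp, and 1 interval, in HmgD and HmgZ, was listed with 2 summits. Such neighbours can read the same replicate peak, and they are not separate observations.

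Some genes held a peak both in an intron and at a promoter. Of the 423 host genes, 132 (31.2%) also had an optimal peak at a 5' end of their own, against 13.7% of all protein-coding genes. The groups are unlike, since the host genes had 2 distinct 5' ends in the median and genes with an intron had 1, the host genes were longer, and the background includes genes without an intron. The part of these features in the difference was not tested. For 80 sites (16.4%) the nearest 5' end itself carried a separate peak, against 12.4% for the intron peaks farther out and 8.39% over all optimal peaks, a figure that includes the promoter peaks (3.48%), whose own start must hold a second peak to count. Restricted to sites among the strongest peaks of 2 replicates, the share was 11.9% without replicate 1, 13.1% without replicate 2 and 10.4% without replicate 3, and the same was not computed for the other groups.

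Among the chromosomes, X held 120 sites (24.6%), while it held 19.9% of the windows, 14.0% of the promoter peaks and 22.9% of the intron peaks farther out. Chromosomes 4 and Y held none. The median signal on X was 0.985, 1.09 and 1.00 in replicates 1 to 3, and on the autosomes 1.07, 1.02 and 0.993, so the order changed between replicates. The embryos were of mixed sex.

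Lists of genes were then read against the background of 3.57% of intron-containing genes. That background counts each gene once, whatever its length, and the host genes were longer (median 13992 bp against 2572 bp for all genes with an intron). The intron sequence that met the rule is not given here for each list. Its part in the counts below, those of 0 included, was not tested. No site lay in any of the 87 intron-containing cytoplasmic ribosomal protein genes, the 65 mitochondrial ribosomal protein genes, the 17 aminoacyl-tRNA synthetase genes or the 18 genes of the Pol III machinery. Among 50 translation factor genes 2 held a site, eIF3h (1.57 ± 0.272), a subunit of the scanning factor eIF3, and eIF4EHP (0.674 ± 0.273), a cap-binding repressor. Of 22 chaperone genes and of 15 highly transcribed housekeeping genes, Hsp83, the fly Hsp90, was the single host in both lists. Its signal was 2.53, 0.879 and 0.941 (mean 1.45 ± 0.937), with replicate 1 far above the others.

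Lists of regulatory genes came next. Among 21 Polycomb and Trithorax genes 3 held 6 sites, 5 of which were among the strongest in all replicates. Polyhomeotic's gene had a second, lower site (1.24 ± 0.224), mor, a subunit of the Brahma remodeller, held 1, and Trl held 3. The highest in Trl, the gene of GAGA factor itself (chr3L:14759356-14759686), had 6.40, 3.87 and 4.60 and lay 1530 bp upstream of an internal 5' end, and the other 2 had means of 1.16 ± 0.260 and 1.05 ± 0.230. Of 25 signalling genes 4 held a site. They were spi, which encodes an EGF receptor ligand (2.06 ± 0.575 and 1.20 ± 0.329), Egfr, Mad, the BMP Smad (1.91 ± 0.700), and neur, a ubiquitin ligase of the Notch pathway (1.38 ± 0.241).

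In the TOR and insulin list 2 of 15 genes held a site, the insulin receptor gene InR at 2.58, 3.69 and 1.75 (mean 2.68 ± 0.970) and Mnt, a Myc antagonist, at 0.557 ± 0.459. Among 15 genes of SR proteins and hnRNPs, mub held a peak of 4.10, 4.17 and 3.14 (mean 3.80 ± 0.579) and ps held 2 weak ones (0.731 ± 0.229 and 0.734 ± 0.272). The Hox gene Abd-B was the single host among 27 Hox and segmentation genes, with 0.526 ± 0.360. The neuronal RNA-binding gene elav (1.18 ± 0.393) was 1 of 25 neuronal genes. A stronger peak (3.07 ± 0.819) lay 252 bp upstream of its 5' end, inside arg, the arginase gene. Among muscle and cytoskeleton genes the cofilin gene tsr was 1 of 21 (1.35 ± 0.579). These counts are small, no list was tested for enrichment, and the part of gene length in the differences between lists was not tested.

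Sequence was read in 301 bp around each summit, on both strands, and set beside the same length at other peaks, in the peak-free intron windows and at 19268 protein-coding 5' ends. The B box core GTTCGANNC was found at 13 sites (2.67%, exact 95% interval 1.43% to 4.52%), against 1.81% of the windows, 3.18% of the promoters and 52.5% of the peaks at Pol III 5' ends. With that G left open, the form seen in CG42588, the share was 9.65% of sites and 8.59% of windows, against 89.0% at Pol III 5' ends. By height, the B box core was at 5.22% of the 115 strongest sites, 2.61% of the next 115 and 1.74% in each of the 2 weaker sets of 115, and the interval over all sites includes the share of the windows. The form with that G left open was at 8.70%, 13.9%, 10.4% and 6.96% of the same sets. The 13 lay in CG31635, CG31612, for, Fum1, CG3902, CG4297, Gdh, Cdc7, Dg, Stt3A, CG43658, tna and the overlapping genes Psa and cue, with mean signals from 4.37 ± 0.876 down to 0.648 ± 0.321, and 11 were among the strongest peaks of all replicates. The gene for is that of a cGMP-dependent kinase, Fum1 encodes fumarase and Gdh glutamate dehydrogenase.

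The A box core GCNNAGTGG was found at 47 sites (9.65%), against 3.74% of windows, 3.82% of promoters and 14.0% of peaks at Pol III 5' ends. The share was 8.72% at the intron peaks over 2 kb away, 10.4% at exon peaks and 5.30% at promoter peaks. At 42 of the 47 the match contained the word ACAGTG. That word, chosen after its values were seen, was at 164 of the 487 sites (33.7%), at 28.6% of the intron peaks over 2 kb away, 23.6% of the promoter peaks and 5.93% of the peaks at Pol III 5' ends, against 11.3% of windows and 13.6% of promoters. It was most frequent beside the summit. In bins of 50 bp of distance to either side, 11.3% of the sites had it within 50 bp, 16.6% at 50 to 100 bp and 14.2% at 100 to 150 bp, and from 350 bp on the share was close to that of the windows, about 4% per bin. From the 115 strongest of the 460 sites to the 115 weakest, the shares were 34.8%, 37.4%, 34.8% and 29.6%. Those of the A box core in the same sets were 15.7%, 10.4%, 7.83% and 5.22%. A second word chosen in the same way, AGGGGG, was at 12.7% of the sites and 8.90% of the windows.

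The GAGA motif GAGAGAG was at 60 sites (12.3%, exact 95% interval 9.53% to 15.6%), against 6.29% of the intron peaks farther out, 7.46% of the promoter peaks, 4.66% of the windows and 6.78% of promoters. The share was similar at exon peaks (12 of 115, 10.4%) and at peaks at 5' ends of other gene types (8 of 60, 13.3%). It was more frequent among higher sites, at 19.1% of the 115 strongest by mean rank, 11.3% in each of the next 2 sets of 115 and 6.09% of the 115 weakest. The 60 sites had a median signal of 1.36, 1.46 and 1.29, against 1.02, 1.02 and 0.966 for the sites without the motif. These medians did not overlap between the groups, while the single sites did. The log2 difference was 0.45 ± 0.06 (exact sign-flip p = 0.25, higher in 3 of 3 replicates). Unlike ACAGTG, the motif was rare in the bin at the summit. It was within 50 bp of the summit at 1.03% of the sites, a share below that of the windows. In the bins at 100 to 150 bp, as in the mub sequence, and 150 to 200 bp, it was at 9.03% and 9.45%. Farther out the motif stayed above the windows in every bin. Its share was 6.37% against 1.77% at 200 to 250 bp, and 3.49% against 1.74% at 450 to 500 bp. By position in the gene, it was at 14.8% of the sites before an internal start (windows 6.47%), 11.4% of those downstream of a start (windows 4.53%) and 8.51% of those near another gene (windows 3.25%). The highest site in Trl had no match in its window.

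**Figure D5:**
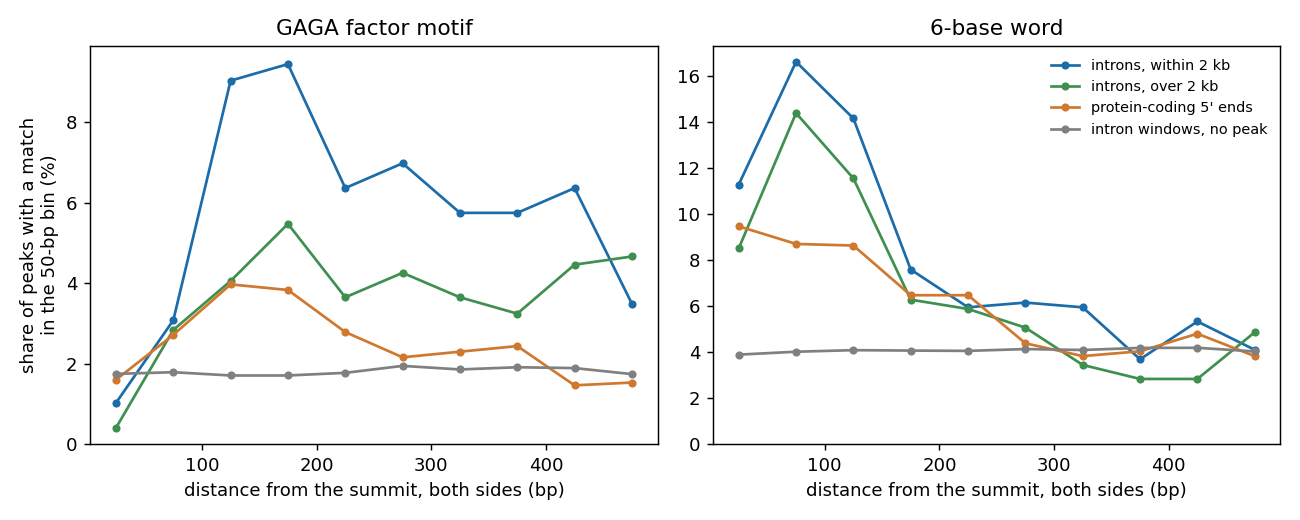
Share of peaks with a match to the GAGA factor motif (left) and to the 6-base word described in the text (right) in bins of 50 bp of distance from the summit, both sides together, for 3 groups of peaks and for peak-free intron windows. The motif reaches 9.45% of the intron peaks near promoters at 150 to 200 bp and only 1.03% at the summit, while the word reaches 16.6% at 50 to 100 bp.

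Of the words of core promoters, Motif 1 and the DNA replication-related element were rare at the sites and TATAAA was common. Motif 1, GGTCACACT, was at none of the 487 sites, for which the exact interval allows up to 0.755%. It was at 7.18% of the promoter peaks and 4.84% of promoters, but also at only 0.155% of windows and at none of the intron peaks over 2 kb away. The interval of the sites includes the share of the windows. The DNA replication-related element TATCGATA was at 3 sites (0.616%), against 12.1% of promoter peaks and 0.651% of windows, and the early embryonic activator Zelda's word CAGGTAG was at 4 (0.821%) against 1.51% of windows. TATAAA was at 198 sites (40.7%), 41.2% of promoter peaks, 37.1% of promoters and 35.0% of windows. The median GC content of the sites was 38.5%, against 39.9% in the windows and 37.9% at promoter peaks. A match to any of these words is a description of the letters and does not show that a factor was bound there.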

How the data were processed

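Peak lists on dm6 from 3 replicate ChIP-seq libraries were used. Per the file headers and notes deposited with them, the authors called relaxed peaks in each replicate and in the pooled reads against a control, and derived the optimal list by comparing replicates. For the aligner, peak caller, threshold and depth, no name or value is given in the sources used here, so the read depth behind a site is unknown. The deposited signal value of a peak is the authors' own score, on a scale not stated. The summit is the deposited offset of the peak's highest point.

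For each optimal peak and replicate, the highest signal among those of the 30000 relaxed peaks that cover the summit was used, divided by the median over the optimal peaks. A peak counted as among the strongest where it overlapped, by at least 1 bp, one of a replicate's 3206 highest. Annotation was Ensembl 115 (BDGP6.54), with sequence from the NCBI copy of the same assembly. Python 3.11.15, numpy 2.4.6, pandas 2.3.3 and scipy 1.17.1 were used, and the calculations were tested on simulated peaks. Differences were tested over the 3 replicates by exact sign flips, never over peaks. Genes named were the 15 sites of highest mean rank, sites near small RNA genes or with a B box core, the 10 genes with most sites, sites in listed genes (up to 4 a list) and the 2 on each side of 2000 bp; sites whose sequence is printed for a GAGA motif were the strongest with one. Other gene names were added after their values were seen. The sites, gene lists and motifs were chosen with earlier results of these data known. The dm3 lists were not used here. Sequences are printed for a few sites, and those of the other sites are not reported here.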

Additional observations from a re-analysis of the deposited data

How the results depend on the processing

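No paired analysis was possible because there was a single group, with no second set of samples to pair with it; differences between places were taken within each replicate. With a limit of 1000 bp the intron peaks numbered 293 and their median signal was 1.07. Among the 1603 strongest optimal peaks there were 257. Taking each gene's outermost 5' end alone gave 653, of which 59.6% were among the strongest peaks of all replicates, and a 5' end window of 250 bp gave 403. The share in all 3 replicates was 91.8% when the strongest 10000 peaks were used and 96.9% with all relaxed peaks. The share whose nearest 5' end had its own peak was 22.3% with the 250-bp window, which by its construction counts more peaks as promoter peaks. Without each replicate in turn, and keeping peaks among the strongest of the other 2, the number of sites was 328 to 345, the share in the strongest of the remaining replicates among all 487 was 67.4% to 70.8%, and the share with a peak at the nearest 5' end was 10.4% to 13.1%. The log2 differences, over all 487 sites, were then the means of the 2 remaining replicates' differences and are no separate check. They were 0.01 to 0.14 against promoter peaks and 0.17 to 0.29 against intron peaks farther out. Against promoter peaks, replicate 3 by itself had the opposite sign (-0.09). In 101 bp around the summit, a shorter sequence, the shares at the sites and in the peak-free windows were 0.616% and 0.512% for the B box core. They were 3.49% and 1.09% for the A box core, 18.5% and 14.6% for TATAAA, and 0.205% and 0.501% for CAGGTAG. For GAGAGAG they were 0.821% and 1.68%. Its share at the sites was thus below that of the windows, the reverse of the order in 301 bp. The share in a first intron was 77.8% by the transcript with the nearest 5' end. The lists hold no read counts, so the counting error behind a signal value is not known here. With 3 replicates the exact sign-flip test cannot go below p = 0.25, whatever the size of a difference relative to its SD.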
